A study of Mus musculus with 12 samples.

Results

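Of the 55401 annotated mouse genes in the deposited table, 88 had at most 8 raw counts in each of the 6 libraries of bone marrow mesenchymal stem cells (MSCs) cultured without the supernatant of myeloid-derived suppressor cells (MDSCs), and at least 100 raw counts in at least 3 of the 6 libraries cultured with it. The libraries without supernatant came from untreated MSCs (Control) and from MSCs given 5 ng/mL TGF-β1. The libraries with supernatant came from MSCs given the same dose of TGF-β1 in the culture supernatant of monocytic (M-MDSC) or granulocytic (G-MDSC) cells. Each of the 4 groups had 3 libraries, and all MSCs were purchased cells from the bone marrow of C57BL/6 mice. The MDSCs had been grown from bone marrow of C57BL/6 mice with cytokines and sorted, as CD11b+Ly6G-Ly6C high cells for M-MDSCs and as CD11b+Ly6G+Ly6C low cells for G-MDSCs. Nothing in the labels says that the libraries of a group came from separate cultures, so p-values measure the spread between these libraries, which may be technical.

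Most of the 88 transcripts are known from the liver and the kidney. Hepatocytes make albumin, apolipoproteins, clotting factors and protease inhibitors for the blood plasma, and they carry out urea synthesis and drug oxidation. The proximal tubule of the kidney takes up phosphate, amino acids and organic anions from the filtrate, and shares with hepatocytes the enzymes of gluconeogenesis and of tyrosine breakdown. B cells and plasma cells make immunoglobulins. By lists of genes of known tissue expression, 42 of the 88 were hepatocyte genes, 20 were genes of both liver and kidney, 14 were proximal tubule genes, 5 were genes of other kidney segments and 3 were immunoglobulin genes. The remaining 4, Akr1c21, Ces1f, Aass and Pigr, were on no list. No transcript was on the lists of T and NK cells, antigen-presenting cells, neutrophils, monocytes and macrophages, red cells and platelets, lung, pancreas and intestine, muscle, brain, testis or interferon-induced genes. Of the 88, 85 were protein-coding (96.6%, against 39.4% of all genes of the table), and the other 3 were immunoglobulin constant genes.

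The libraries held from 73977669 to 84565450 counts. The 88 transcripts together had 12 to 33 counts in each library without supernatant, and 70 of them were at 0 in all 6 of these libraries. With G-MDSC supernatant they had 40413, 38443 and 42094 counts in replicates 1, 2 and 3. With M-MDSC supernatant they had 5969, 7033 and 42026 counts. This difference from the libraries without supernatant is what selected the genes and was not tested. M-MDSC replicate 3 therefore stood apart from the other M-MDSC libraries and lay close to the G-MDSC libraries, and the results below are given with and without it. In bulk RNA, fewer cells of a type and less RNA per cell cannot be told apart, and transcripts carried in with the supernatant cannot be told apart from transcripts made by the MSCs. Even at the highest, 540 CPM (counts per 1000000 counts of the library), the 88 transcripts were 0.0540% of the counts of a library.

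**Figure D1:**
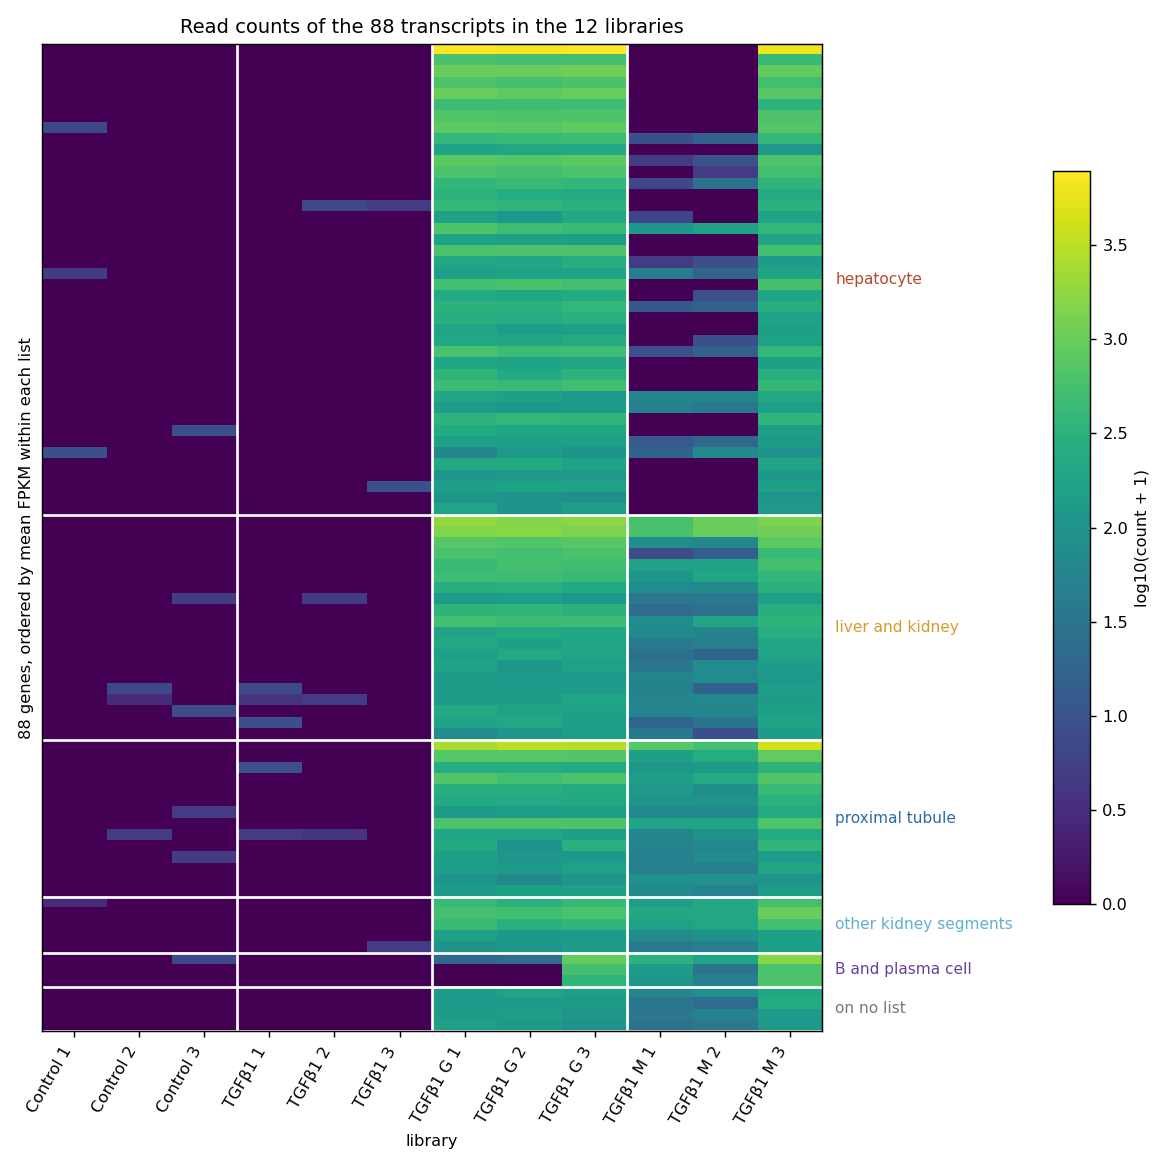
Raw counts of the 88 transcripts (lines of the map, grouped by list and ordered by mean FPKM within the list) in the 12 libraries (columns), as log10(count + 1). The 6 columns without supernatant are at or near 0. Most hepatocyte genes are at or near 0 in M-MDSC replicates 1 and 2, kidney genes are read in all 6 supernatant libraries, and the immunoglobulin genes Ighg1 and Ighg2b are at 0 in G-MDSC replicates 1 and 2.

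Promoter sequences are shown for 5 of the transcripts, since members that move together across libraries span liver and kidney, which share the transcription factors HNF1 and HNF4. RefSeq promoters of GRCm38.p6, from 250 bases before to 50 bases after the start site, were matched by symbol for 61 of the 88 genes and gave 71 promoters. The letters GTTAAT, one arm of the HNF1 motif, were found on either strand in 24 of the 71 promoters (33.8%), against 7.14% of all 32544 promoters. For hepatocyte genes the share was 37.5% of 32 promoters, and for proximal tubule genes it was 35.3% of 17 promoters. It was 25% of 16 promoters for liver and kidney genes and 33.3% of 3 for other kidney segments. The hepatocyte promoters with these letters include those of the gene copies Serpina1a to Serpina1e, each counted separately. The letters TATAAA were found on either strand in 28.2% of the 71 promoters and in 13.6% of all promoters, the HNF4 letters CAAAGTCCA in 2.82% and 0.479%, and the interferon element letters GAAACNGAA in 1.41% and 1.89%. These shares describe letters and not bound sites. Below are the 250 bases before the start site, 5′ to 3′ on the strand of the gene, for the gene with the highest mean FPKM of each liver or kidney list whose promoter held GTTAAT and, for contrast, for the highest gene of all without it. Capitals mark GTTAAT or its complement ATTAAC, and TATAAA.
Alb (hepatocyte, chr5:90460620-90460869, + strand): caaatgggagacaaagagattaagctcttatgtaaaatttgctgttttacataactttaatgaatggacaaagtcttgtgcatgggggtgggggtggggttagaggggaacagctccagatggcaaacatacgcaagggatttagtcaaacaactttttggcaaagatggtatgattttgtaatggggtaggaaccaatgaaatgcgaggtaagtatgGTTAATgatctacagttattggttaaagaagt
Pck1 (liver and kidney, chr2:173152823-173153072, + strand): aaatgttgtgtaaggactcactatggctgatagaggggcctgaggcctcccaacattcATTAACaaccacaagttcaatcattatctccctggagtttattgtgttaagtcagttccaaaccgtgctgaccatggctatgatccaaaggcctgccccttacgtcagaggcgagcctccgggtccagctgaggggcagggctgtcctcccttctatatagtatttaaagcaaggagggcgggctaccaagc
Miox (proximal tubule, chr15:89334223-89334472, + strand): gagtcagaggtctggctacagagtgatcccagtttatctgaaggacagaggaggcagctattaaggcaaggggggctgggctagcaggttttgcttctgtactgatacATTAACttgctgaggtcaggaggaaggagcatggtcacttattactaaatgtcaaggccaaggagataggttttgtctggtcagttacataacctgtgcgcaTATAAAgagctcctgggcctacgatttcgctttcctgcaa
Umod (other kidney segments, chr7:119479263-119479512, - strand): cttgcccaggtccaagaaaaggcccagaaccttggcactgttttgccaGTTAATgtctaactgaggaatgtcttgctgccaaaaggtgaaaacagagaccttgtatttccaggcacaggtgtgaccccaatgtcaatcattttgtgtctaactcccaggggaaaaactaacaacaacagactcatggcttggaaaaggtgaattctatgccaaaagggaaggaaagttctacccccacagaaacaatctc
Kap (proximal tubule, chr6:133853668-133853917, - strand): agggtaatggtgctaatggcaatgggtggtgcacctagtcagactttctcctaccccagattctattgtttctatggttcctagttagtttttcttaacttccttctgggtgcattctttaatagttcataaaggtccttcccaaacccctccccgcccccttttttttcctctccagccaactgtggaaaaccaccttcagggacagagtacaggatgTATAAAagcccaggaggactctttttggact
The marked HNF1 letters began 32 bases before the start site in Alb, 192 in Pck1, 142 in Miox and 202 in Umod. The promoter of Kap held no GTTAAT and carried TATAAA 31 bases before its start site. In these 5 windows no HNF1 letters overlapped a TATA box.

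Hepatocyte transcripts were read at like levels in 4 libraries and were at or near 0 in the other two supernatant libraries. Alb, the gene of serum albumin (chr5:90460897-90476602, GRCm38), had 7588, 7039 and 7827 counts in G-MDSC replicates 1, 2 and 3. It had 0, 0 and 6423 counts in M-MDSC replicates 1, 2 and 3, and 0 in all 6 libraries without supernatant. M-MDSC replicate 3 thus held Alb at 89.7% of the G-MDSC mean in CPM, while replicates 1 and 2 held none. By counting error alone, 3 counts would be the limit that a count of 0 allows. The FPKM of Alb was 35.2 ± 1.67 with G-MDSC supernatant and 10.5 ± 18.3 with M-MDSC supernatant (mean ± SD, n = 3), and the SD of the latter exceeded its mean.

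Other leading plasma proteins were also at 0 in M-MDSC replicates 1 and 2. Apoa1, the main apolipoprotein of high-density lipoprotein, had 999, 995 and 1114 counts with G-MDSC supernatant and 0, 0 and 897 with M-MDSC supernatant. Its partner Apoa2 had 591, 542 and 558 counts with G-MDSC and 0, 0 and 439 with M-MDSC supernatant. Ahsg, the gene of fetuin-A, had 1041, 858 and 1019 counts against 0, 0 and 772. In each of these genes M-MDSC replicate 3 was below all 3 G-MDSC libraries in raw counts. Serpina1c, a copy of the α1-antitrypsin gene, had 633, 556 and 597 counts with G-MDSC and 0, 0 and 519 with M-MDSC supernatant. The 5 Serpina1 copies among the 88 were 88.6% to 97.5% identical in their longest transcripts, and 50.5% of the 150-base windows of Serpina1c also occurred in transcripts of other genes, so the split of reads among these copies is uncertain. The same holds for Mup7, a major urinary protein gene of which 72.9% of windows were shared. Of all 88 transcripts, 72 shared no such window with another gene.

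Among the 42 hepatocyte transcripts, 26 were at 0 in both M-MDSC replicates 1 and 2, and 37 averaged less than 10% of the G-MDSC mean in those libraries. The 27 genes of secreted plasma or urinary proteins, which include prothrombin (F2), plasminogen (Plg), the 3 fibrinogen chains (Fga, Fgb and Fgg), transthyretin (Ttr), retinol-binding protein (Rbp4) and 3 major urinary proteins, ranged from 0% to 4.58% there. Of these 27 genes, 18 were at 0 in both. The 13 enzymes of hepatocytes ranged from 0% to 39.8%, and 7 of them were at 0 in both, among them Cps1 of the urea cycle with 345, 382 and 354 counts with G-MDSC and 0, 0 and 367 with M-MDSC supernatant. The 5 hepatocyte transcripts at 10% or more included the enzymes Cyp4a14, Inmt, Ugt3a2 and Ces1d. Inmt, a methyltransferase, had 157, 177 and 183 counts with G-MDSC and 44, 17 and 186 counts with M-MDSC supernatant, so that its groups overlapped. Fabp1, the liver fatty acid-binding protein, took 29.1% of its 6-library CPM in G-MDSC replicate 2, and F2 took 31.9% of its own in G-MDSC replicate 1, the largest shares among the 88 in those libraries.

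Within the 4 libraries that held them, the hepatocyte transcripts had a similar rank order. The rank of the 42 counts in M-MDSC replicate 3 followed that in the G-MDSC libraries with Spearman's rho of 0.918 to 0.931, against 0.958 to 0.963 among the G-MDSC libraries. These are descriptions across genes of 1 library pair, which share selection and length, and genes are not independent replicates. The summed level of the list was 274, 272 and 288 CPM with G-MDSC supernatant and 4.58, 6.53 and 251 CPM with M-MDSC supernatant. The coefficient of variation of the 3 G-MDSC sums was 3.10%. In M-MDSC replicate 3 the median hepatocyte transcript was at 90.9% of the G-MDSC mean, with a range from 63.0% to 145%.

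**Figure D2:**
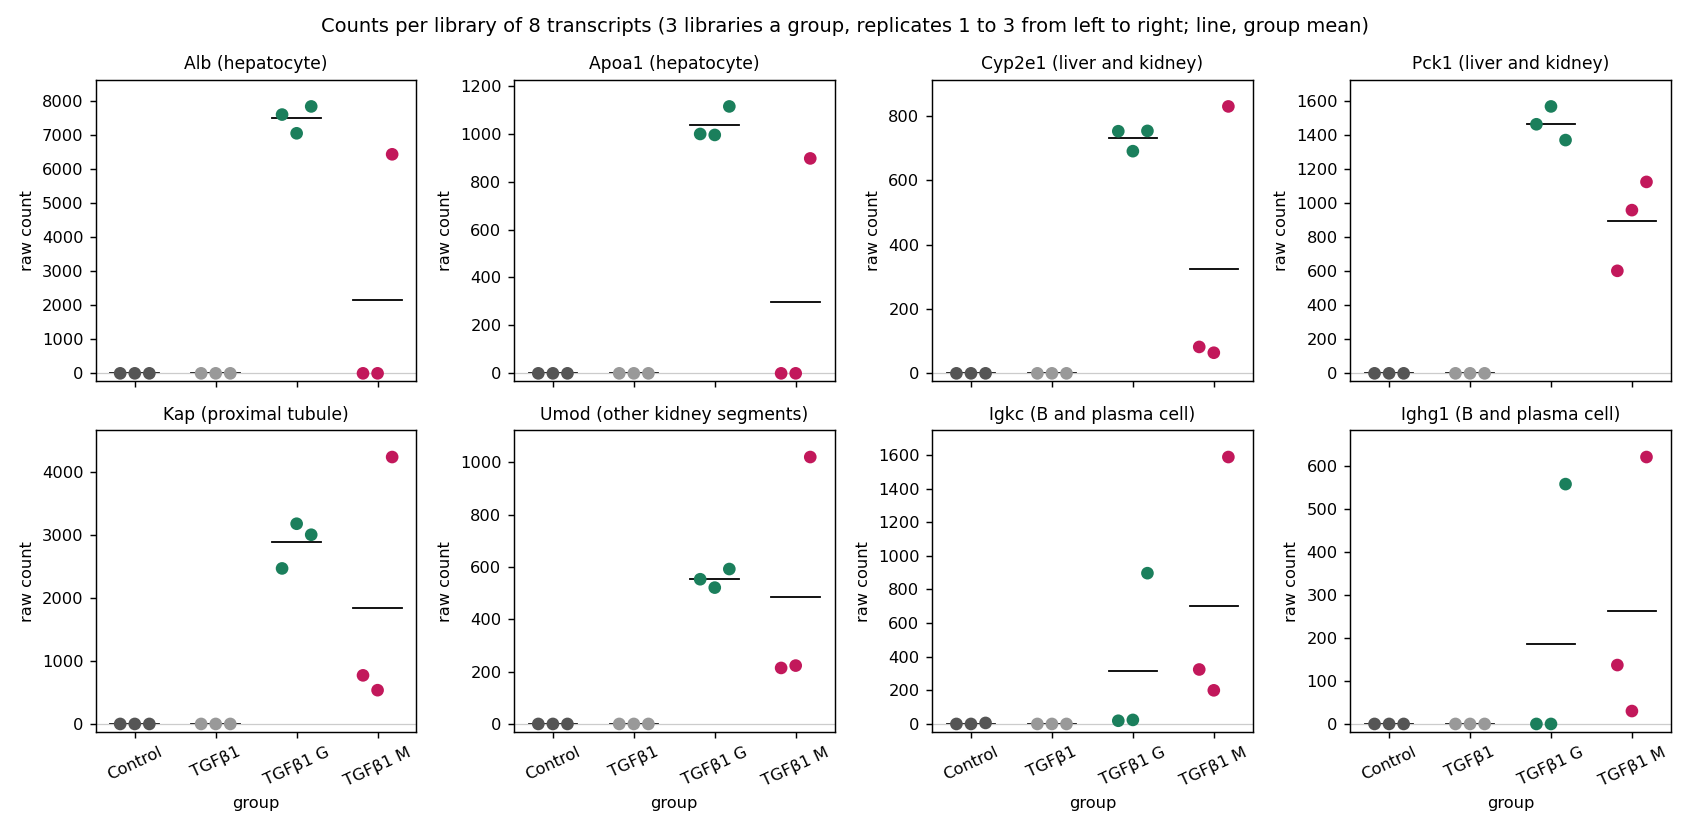
Raw counts of Alb, Apoa1, Cyp2e1, Pck1, Kap, Umod, Igkc and Ighg1 in each library, with replicates 1 to 3 from left to right in each group and a line at the group mean. Alb and Apoa1 are at 0 in M-MDSC replicates 1 and 2, Pck1, Kap and Umod are read in all 6 supernatant libraries, and Ighg1 is at 0 in G-MDSC replicates 1 and 2.

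Transcripts known from both liver and kidney were read in all 6 supernatant libraries. Pck1, the cytosolic enzyme that commits carbon to gluconeogenesis (chr2:173153048-173159273), had 1465, 1570 and 1372 counts with G-MDSC supernatant and 603, 960 and 1126 with M-MDSC supernatant. Its 3 M-MDSC libraries were below its 3 G-MDSC libraries. In M-MDSC replicates 1 and 2 it was at 58.2% of the G-MDSC mean. Fbp1, another enzyme of gluconeogenesis, had 283, 299 and 228 counts with G-MDSC and 77, 71 and 312 counts with M-MDSC supernatant, and was at 30.0% in replicates 1 and 2. G6pc, which releases free glucose, had 174, 112 and 168 counts against 33, 74 and 136, and was at 38.9%. The groups overlapped for both genes. Of the enzymes of tyrosine breakdown, Hpd was at 7.83% and Hgd at 26.8% there, while Tat of the hepatocyte list had 276, 260 and 291 counts against 0, 0 and 183.

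Single genes of this list lay nearer to the hepatocyte pattern. Gc, the vitamin D-binding protein of plasma (chr5:89417522-89457898), had 588, 539 and 604 counts with G-MDSC and 7, 14 and 419 counts with M-MDSC supernatant. Cyp2e1, an ethanol-oxidizing cytochrome P450, had 752, 690 and 753 counts against 82, 64 and 829. Gc was thus at 1.99% and Cyp2e1 at 10.9% of the G-MDSC mean in M-MDSC replicates 1 and 2, while Cyp4b1, another cytochrome P450, with 428, 547 and 492 counts against 175, 174 and 562, was at 38.9%. Hnf4a, which encodes the transcription factor HNF4α of liver and kidney, was itself among the 88. It had at most 7 counts without supernatant, 235, 181 and 163 counts with G-MDSC and 56, 60 and 159 counts with M-MDSC supernatant. Over the 20 genes the summed level was 101, 104 and 100.1 CPM with G-MDSC and 29.4, 43.7 and 95.8 CPM with M-MDSC supernatant.

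Kidney transcripts were read in every supernatant library, mostly lowest in M-MDSC replicates 1 and 2 and mostly highest in M-MDSC replicate 3. Kap, the kidney androgen-regulated protein of the proximal tubule (chr6:133849851-133853762), had the highest mean FPKM of the 88, at 37.9 over the 6 libraries. Its counts were 2474, 3185 and 3010 with G-MDSC and 773, 537 and 4246 with M-MDSC supernatant. Slc34a1, the sodium-phosphate cotransporter of the brush border, had 714, 513 and 622 counts against 151, 235 and 694. For both genes M-MDSC replicates 1 and 2 were below every G-MDSC library and replicate 3 was not. In CPM, replicate 3 was above all G-MDSC libraries for 12 of the 14 proximal tubule transcripts. Slc27a2, a fatty acid transport protein, had 734, 771 and 703 counts against 162, 256 and 921, and Miox, which opens the ring of myo-inositol, had 260, 255 and 240 counts against 115, 131 and 327. Napsa, an aspartic protease of the proximal tubule, had 286, 287 and 236 counts with G-MDSC and 125, 86 and 426 with M-MDSC supernatant.

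The transporters of organic anions and cations among the proximal tubule transcripts were Slc22a6, Slc22a8, Slc22a12 and Slc47a1. Slc22a8, an organic anion transporter (chr19:8591254-8611834), was the one transcript of the list without a lower level in M-MDSC replicates 1 and 2, with 104, 72 and 102 counts with G-MDSC and 88, 91 and 103 counts with M-MDSC supernatant. These libraries held 16.5% and 17.2% of its 6-library CPM, the largest share of any of the 88 transcripts there. The 8 membrane transport genes of the list (the 4 above, Slc27a2, Slc34a1, Cltrn and Kcnj15) ranged from 31.1% to 106% of the G-MDSC mean in M-MDSC replicates 1 and 2, and the 6 enzymes and secreted products ranged from 24.7% to 53.5%.

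Beyond the proximal tubule, 5 transcripts of other kidney segments passed the count limits. Umod, uromodulin of the thick ascending limb (chr7:119462711-119479282), had 553, 521 and 592 counts with G-MDSC and 214, 223 and 1020 counts with M-MDSC supernatant. Klk1, a tissue kallikrein of the distal nephron, had 416, 321 and 408 counts against 151, 221 and 550. Fxyd2, the γ subunit of the sodium pump, had 428, 297 and 367 counts against 166, 211 and 534. In CPM, all 5 (with Slc12a1, the loop diuretic-sensitive cotransporter, and Cdh16, kidney-specific cadherin) were highest in M-MDSC replicate 3 and lowest in M-MDSC replicate 1. Aqp2 of the collecting duct, which is not among the 88, had 0 counts without supernatant and 24, 31 and 17 against 11, 21 and 48 counts with it.

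**Figure D3:**
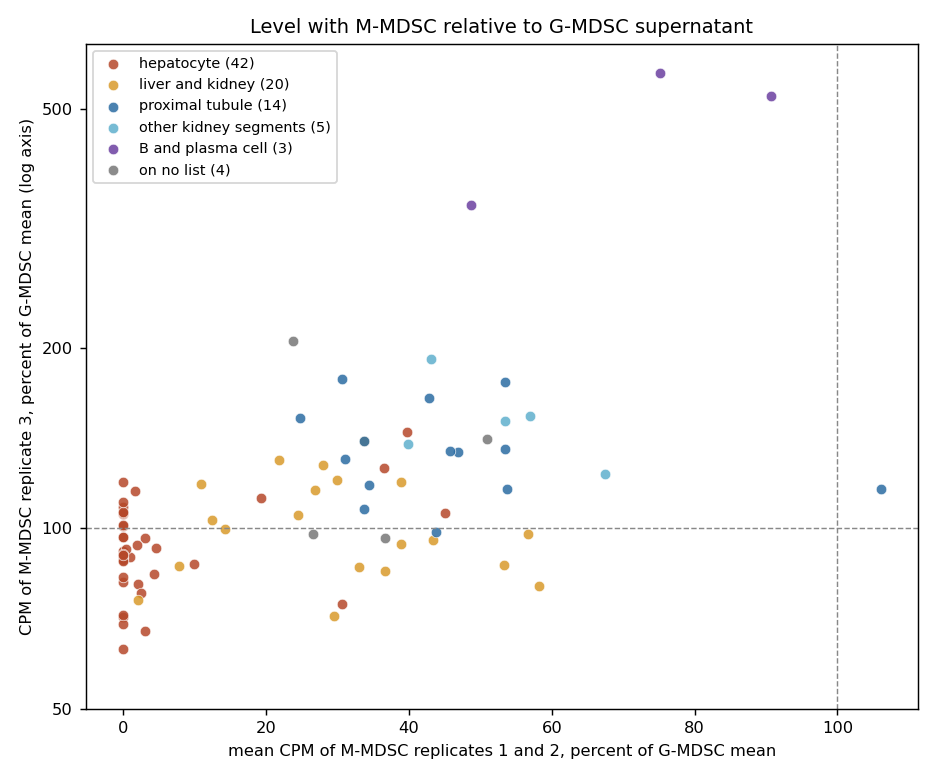
For each of the 88 transcripts, the mean CPM of M-MDSC replicates 1 and 2 (horizontal axis) and the CPM of M-MDSC replicate 3 (vertical, log axis), both as a percent of the mean of the 3 G-MDSC libraries. Hepatocyte genes lie along the left edge with a median of 0% and kidney genes between 24.7% and 106%, while the 3 immunoglobulin genes stand at 346% to 576% in replicate 3.

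The 3 immunoglobulin transcripts had a different order of libraries. Igkc, the constant region of the κ light chain (chr6:70726435-70726966), had 19, 24 and 897 counts with G-MDSC and 324, 200 and 1588 counts with M-MDSC supernatant. Ighg1, the constant region of an IgG heavy chain (chr12:113325240-113330523), had 0, 0 and 558 counts against 137, 30 and 621. Ighg2b, that of another IgG (chr12:113302965-113307933), had 0, 0 and 355 counts against 115, 49 and 657. G-MDSC replicates 1 and 2, which held the liver and kidney transcripts in full, were thus at or near 0 for immunoglobulins, and G-MDSC replicate 3 and M-MDSC replicate 3 held the most. G-MDSC replicate 3 took 40.4% of the 6-library CPM of Ighg1, and M-MDSC replicate 3 took 56.1% of that of Ighg2b.

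Of the B and plasma cell list, 4 genes were at or under 8 counts without supernatant and reached 10 counts in at least 3 supernatant libraries without being among the 88. Ighg2c had 0, 0 and 115 counts with G-MDSC and 74, 64 and 696 with M-MDSC supernatant. Jchain, the joining chain of secreted IgM and IgA, had 0, 0 and 46 counts against 10, 15 and 75. Igha had 24, 39 and 323 counts against 87, 36 and 278, and Ighm had 4, 12 and 35 counts against 18, 37 and 106. M-MDSC replicate 3 was highest for Ighg2c, Jchain and Ighm, and G-MDSC replicate 3 was highest for Igha. The B cell surface marker Ms4a1 was at 0 in all 12 libraries, and Cd79a had at most 12 counts in any library. Pearson's r of log2(CPM + 1) across the 6 supernatant libraries had a median of 0.127 over 126 pairs of a hepatocyte and an immunoglobulin transcript. Its median was 0.990 over 861 pairs within hepatocyte transcripts and 0.984 over the 3 pairs within immunoglobulins. Between proximal tubule and hepatocyte transcripts the median was 0.919 over 588 pairs. These values describe 6 libraries that all genes share, and carry no test.

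**Figure D4:**
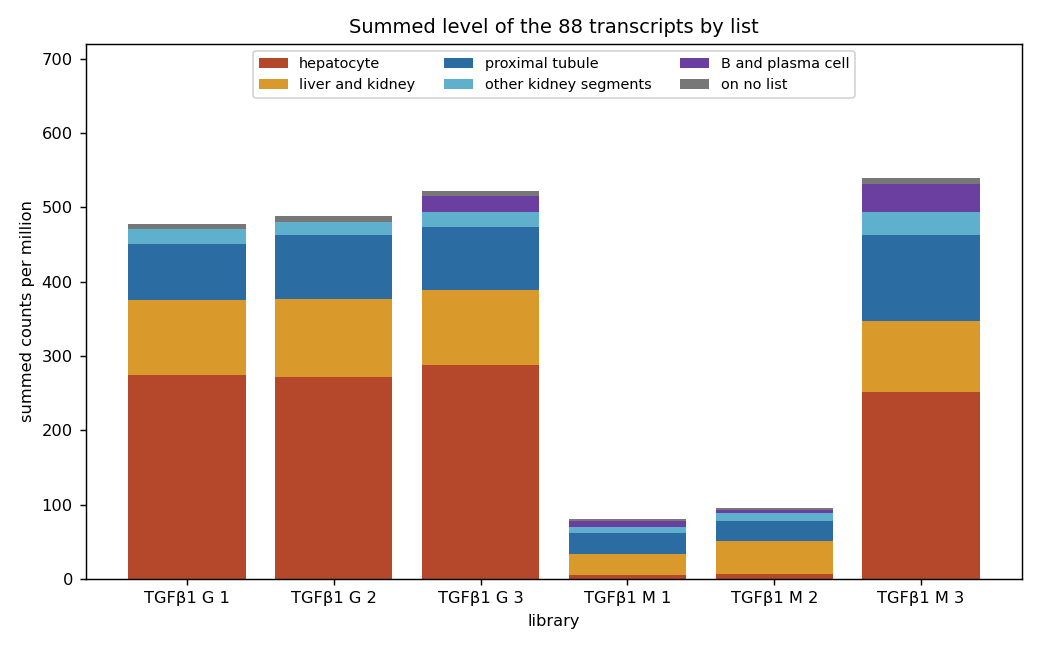
Summed CPM of the 88 transcripts in the 6 supernatant libraries, stacked by list. The G-MDSC libraries and M-MDSC replicate 3 reach 478 to 540 CPM with the hepatocyte list as the largest share, while M-MDSC replicates 1 and 2 reach 80.0 and 95.1 CPM with little of it.

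Myeloid and T cell genes were not among the 88, although the supernatants came from myeloid cells. Of the 116 genes found from the list of monocytes and macrophages, 66 had at most 8 counts in each library without supernatant, and these together had 170 to 625 counts per library with it. The corresponding 54 neutrophil and granule genes had 46 to 327 counts per library, and the 91 T and NK cell genes had 142 to 413. By comparison, the corresponding 172 hepatocyte genes had 538 to 26533 counts. Of single myeloid markers, Lyz2, lysozyme, had at most 23 counts without supernatant, 262, 225 and 185 counts with G-MDSC and 184, 71 and 262 counts with M-MDSC supernatant. S100a9, an abundant granulocyte protein, had 0, 0 and 160 counts against 43, 12 and 23. Itgam, which encodes the CD11b used in the sort, had 42, 14 and 16 counts against 0, 0 and 41. The granule enzymes Mpo and Elane were at 0 in all 12 libraries, and Ly6g had 0 to 18 counts in the supernatant libraries, 4 to 8 counts with TGF-β1 alone and 152 to 161 counts in the untreated MSCs.

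MSC markers were read in every library. Itgb1, which encodes CD29, had 91800 to 145210 counts, Cd44 had 23361 to 39783 and Ly6a, which encodes Sca-1, had 1430 to 27320. Of markers that MSCs are held to lack, Kit, CD117, had 0 to 10 counts and Pecam1, CD31, 40 to 120. Cd34 went against this, with 37455 to 44870 counts in the untreated MSCs, 9005 to 11417 with TGF-β1 alone and 7480 to 9524 with supernatant. Of other genes read with supernatant, 4 Y-linked genes together were at 0 in all 6 libraries without it and had 35, 16 and 35 counts with G-MDSC and 4, 12 and 13 counts with M-MDSC supernatant. The part of RNA of another source in the levels of the 88 transcripts was not tested.

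Among genes with at most 8 counts without supernatant and at least 10 counts in at least 3 supernatant libraries, 387 were not among the 88, since they did not reach 100 counts in 3 libraries. They passed the same limit without supernatant and a lower limit in the same supernatant libraries, so their values are a description and no independent support. Of these, 67 were hepatocyte genes, 47 of them at 0 in both M-MDSC replicates 1 and 2, and their median there was 0% of the G-MDSC mean. The 37 proximal tubule genes had a median of 44.9% there and of 106% in M-MDSC replicate 3, and 6 of them were at 0 in both replicates 1 and 2. The 18 genes of other kidney segments had medians of 66.2% and 140%, and the 22 genes of liver and kidney had 30.6% and 138%. Among the 20 liver and kidney genes of the 88, the median in M-MDSC replicate 3 was 98.8%, and 0 were at 0 in both replicates 1 and 2, against 6 of these 22. The 197 genes on no list had medians of 46.1% and 111%.

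M-MDSC and G-MDSC supernatant were then compared within the 6 libraries, by edgeR's quasi-likelihood test over 17639 genes with at least 10 counts in at least 3 of these libraries. The call required a change of more than 2-fold in either direction together with p under 0.05 before adjustment. The 88 transcripts were all tested, but their selection required 100 counts in 3 of the same libraries, so the test is not independent of it. With all 6 libraries, 2 of the 88 were called, both lower with M-MDSC supernatant, and 0 were called higher. The background was 1.08% of all genes called in either direction and 0.731% called lower with M-MDSC supernatant. After Benjamini-Hochberg adjustment over all genes tested, 0 of the 88 were under 0.05, against 0.221% of all genes. By DESeq2 0 of the 88 also passed the adjusted threshold, against 139 of all 17639 genes. An unadjusted p-value under 0.05 was found by edgeR for 3 of the 88, against 941 of all 17639 genes. By DESeq2 it was found for 7 of the 88, against 951 of all 17639 genes.

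One of the called genes was Cyp4a14. Cyp4a14, a fatty acid ω-hydroxylase (chr4:115486200-115496142), had 673, 491 and 434 counts with G-MDSC and 119, 178 and 379 counts with M-MDSC supernatant, without overlap. Its log2 fold change was -1.14 (SE 0.40, edgeR adjusted p = 0.881). Its call was lost without G-MDSC replicate 1, where the log2 fold change was -0.96, and also without G-MDSC replicate 2, M-MDSC replicate 1 or M-MDSC replicate 2. Pck1 was another transcript with an unadjusted p-value under 0.05, at a change of less than 2-fold (log2 -0.60, SE 0.21, edgeR adjusted p = 0.879).

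The median log2 fold change of the 88, M-MDSC minus G-MDSC, was -1.04 against -0.0039 over all genes tested. By list it was -1.68 for hepatocyte genes, -0.80 for liver and kidney, -0.41 for the proximal tubule, -0.21 for other kidney segments and 1.25 for immunoglobulins. Of all genes tested, 9039 of 17639 values were negative and 1.08% were called. All 42 hepatocyte values were negative, with 1 of 42 called, and all 3 immunoglobulin values were positive, with 0 of 3 called and 0 with an unadjusted edgeR p-value under 0.05. Single libraries moved these medians. Without M-MDSC replicate 3 the median was -1.74 for liver and kidney, -1.19 for the proximal tubule, -0.89 for other kidney segments and -0.39 for immunoglobulins. Without M-MDSC replicate 1 it was -1.11 for hepatocyte genes, -0.14 for the proximal tubule and 0.11 for other kidney segments, and without M-MDSC replicate 2 it was -1.11 for hepatocyte genes, -0.16 for the proximal tubule and -0.04 for other kidney segments. Without G-MDSC replicate 1 it was 0.70 for immunoglobulins and -0.13 for other kidney segments, and without G-MDSC replicate 2 it was 0.71 for immunoglobulins. The hepatocyte median without M-MDSC replicate 3 and the immunoglobulin median without G-MDSC replicate 3 are set by genes at 0 in a whole group and depend on the prior count. For Alb, with 0, 0 and 6423 counts within the M-MDSC group, the fitted change was -1.74 and its SE was larger than the change.

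The counts of calls without M-MDSC replicate 3 are a description and no test of the 88. Most of the 88 reached 100 counts in 3 libraries through the G-MDSC libraries and M-MDSC replicate 3, so leaving out the latter leaves a difference that the selection had largely fixed, while the other genes were not selected in this way. Without it, 73 of the 88 were called lower with M-MDSC supernatant, against a background of 2.54% of all genes called lower. Of the 88, 46 had an adjusted p-value under 0.05, against 0.652% of all genes. The calls fell on 41 of 42 hepatocyte genes, 17 of 20 liver and kidney genes, 10 of 14 proximal tubule genes, 2 of 5 genes of other kidney segments and 3 of 4 unlisted genes, and on 0 of 3 immunoglobulin genes, of which 0 had an unadjusted p-value under 0.05. With all 6 libraries the log2 fold change of Kap was -0.56 (SE 0.72) and that of Umod -0.10 (SE 0.58), and neither was called. Fitted values of genes at 0 in both remaining M-MDSC libraries depend on the prior count and are not printed. These calls rest on leaving out 1 library.

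**Figure D5:**
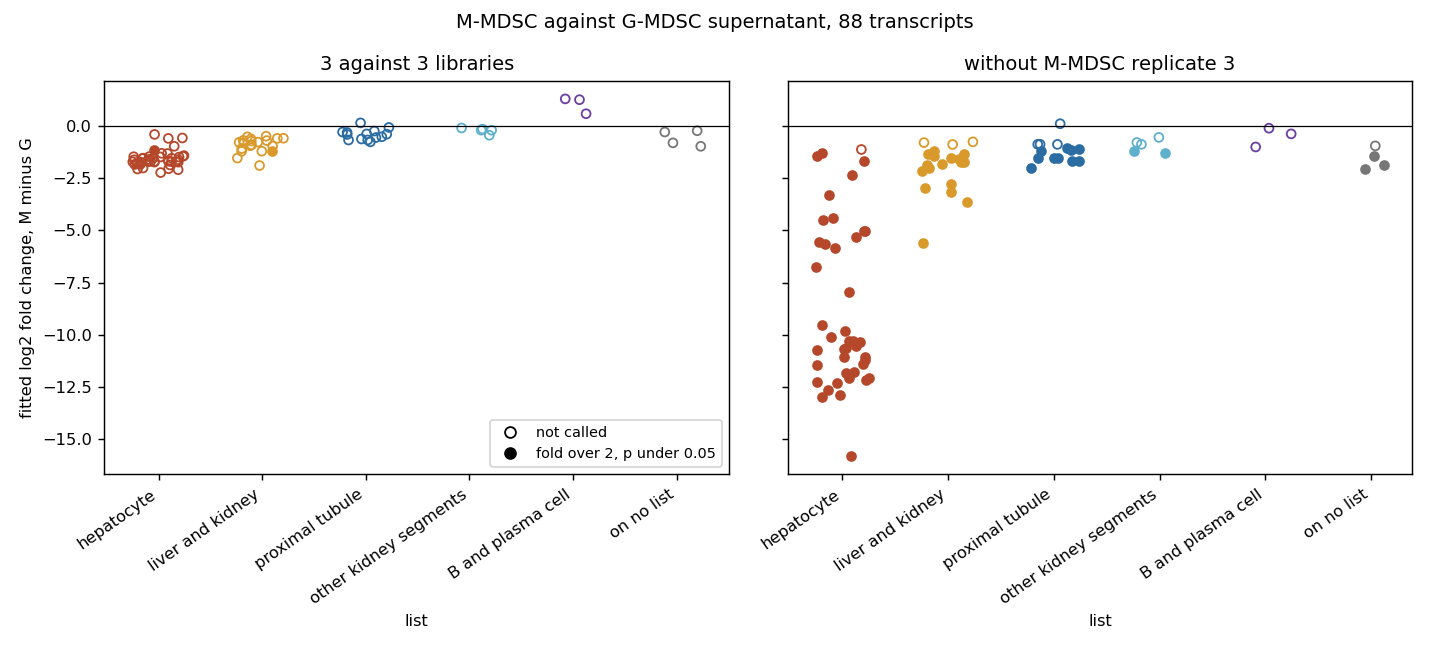
Fitted log2 fold change of the 88 transcripts with M-MDSC minus G-MDSC supernatant, by list, with all 6 libraries (left) and without M-MDSC replicate 3 (right). Filled points were called (fold over 2 with p under 0.05): 2 on the left, against 1.08% of all genes, and 73 on the right, against 2.54% of all genes called lower, where the selection had largely fixed the difference. Values near -10 and lower belong to genes at 0 in both remaining M-MDSC libraries and depend on the prior count.

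M-MDSC replicate 3 was also compared with the other libraries over wider sets of genes. Over all genes, the 88 included, it had 20103 genes with more than 3 counts, against 19588 and 19440 in M-MDSC replicates 1 and 2 and 20093 to 20448 in the G-MDSC libraries. This number includes genes selected through the same libraries and is not independent of the pattern of the 88. The list of interferon-induced genes, of which none is among the 88, summed to 4472, 4680 and 4497 CPM in M-MDSC replicates 1, 2 and 3 and to 3409, 3392 and 3323 CPM with G-MDSC supernatant. In this sum replicate 3 lay between the other M-MDSC libraries, and all M-MDSC libraries were above all G-MDSC libraries. Over 8555 well expressed genes other than the 88, its median absolute log2 difference was 0.0676 and 0.0897 from the other M-MDSC libraries and 0.0771 to 0.105 from the G-MDSC libraries.

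Near the limits of the selection, Apoa5 entered with a third-highest supernatant count of 101, and Glyat and Ugt2b38 were left out with 98 and 96. Miox and Kng1 entered with 8 counts in a library without supernatant, and Pzp and Trf were left out with 9. Trf, the gene of transferrin, had 1321, 1239 and 1526 counts with G-MDSC and 10, 5 and 1232 with M-MDSC supernatant, the hepatocyte pattern. Gpx3, a plasma glutathione peroxidase made in the proximal tubule, was left out with up to 11 counts in the libraries without supernatant, 3 of which were over the limit of 8. It had 4361, 3659 and 4315 counts with G-MDSC and 2618, 4518 and 3955 with M-MDSC supernatant, so that its groups overlapped.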

How the data were processed

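mRNA of 12 MSC libraries was sequenced after poly(A) selection with a kit that marks strand. The authors aligned reads to GRCm38 with HISAT2 2.0.4 and assembled transcripts with StringTie 1.3.4d (versions from the submitters' processing notes). They deposited raw counts per gene, and the tool and strand setting that made the counts are not given in the sources used here. They also deposited FPKM, a level scaled by transcript length and library size, in which 0 is written as 0.0001. FPKM was used here for comparing levels between genes and for naming genes, and counts for the tests. The table also gives the authors' own comparisons, which were not used.

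Genes were selected by raw count (at most 8 in each of 6 libraries without supernatant, at least 100 in at least 3 of 6 with it). Lists of genes of known tissue expression and functional roles were written from general knowledge. The members and lists were chosen with earlier results of these data known. CPM are counts divided by the library total and multiplied by 1000000. M-MDSC and G-MDSC supernatant were compared with edgeR 4.0.16 in R 4.3.3 (TMM scaling, quasi-likelihood F test, two-sided) over 17639 genes with at least 10 counts in at least 3 of the 6 libraries, with DESeq2 1.42.0 as an alternative. On simulated data of that size, 61 of 100 genes changed 2-fold and 96 of 100 changed 4-fold were recovered at adjusted p under 0.05. At that threshold there were 11 false calls. The changed genes were drawn without the least expressed genes. These numbers do not give the error of the call by fold and unadjusted p. Genes were named by a rule on mean FPKM within each list, on the calls, on the selection limits and on the largest share of a library; the 4 unlisted members, the marker genes of other cell types and some further members were named after their values were seen. Results of some genes that the rule names are not reported here. Depth was 73977669 to 84565450 counts per library. Limits for counts of 0 cover counting error alone. Libraries of one group differed by more than counting error, which does not tell separate cultures from technical repeats. All were kept as separate libraries. Promoters were read from RefSeq (GRCm38.p6). Alternatives covered the count limits, scaling, filters, the tool, the libraries in the fit, a replicate block and leaving out each library in turn. Python 3.11.15 with pandas 2.3.3 served for the counts by list and library.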

Additional observations from a re-analysis of the deposited data

How the results depend on the processing

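The selection gave 88 genes, and 78 to 96 with the limit without supernatant at 4 or 16 counts, 85 on counts scaled to the mean library size, and 81 to 88 when each supernatant library was left out. It gave 139 genes with a limit of 50 counts, 46 with 200 counts and 14 when all 6 supernatant libraries had to pass. Of the 88, 2 differed by the call between the supernatants, and 0 to 73 when each library was left out, with 73 without M-MDSC replicate 3, 4 without G-MDSC replicate 3 and 0 without any one of the others. An adjusted threshold without a fold limit gave 0 of the 88 and 39 of all genes, of which 191 were called. All genes called numbered 370 with no filter beyond 1 count, 69 with the FPKM filter and 191 to 504 when each library was left out. RLE scaling, library size alone, counts divided by 4 and all 12 libraries in one fit kept the number of the 88 called at 2, and DESeq2 gave 3. The median log2 fold change of the 88 was -1.04, and ranged from -2.11 to -0.71 when each library was left out.

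Replicate numbers are shared between groups. Over 17639 genes, deviations of M-MDSC and G-MDSC libraries with the same number correlated at -0.011 to 0.040 (mean 0.016, 3 pairs). Those with different numbers correlated at -0.061 to 0.039. Whether libraries with the same number shared a batch was not tested. With a replicate block, 9 of the 88 were called (8 lower and 1 higher with M-MDSC supernatant, 0 adjusted) and 165 of all genes, and the median log2 fold change was -4.26 for hepatocyte genes, 3.07 for immunoglobulins, -0.66 for the proximal tubule and -0.40 for other kidney segments, against -1.68, 1.25, -0.41 and -0.21 without it.

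Fold changes of some genes that were not called with all 6 libraries turned sign when a library was left out. Of the 88 values, 4 were positive with all 6 libraries, 13 without M-MDSC replicate 1 and 10 without M-MDSC replicate 2. Among all 17639 genes these numbers were 8600, 8516 and 8763. For some of the genes that turned sign, the lowest and highest log2 values over all such omissions follow. They were -1.211 and 0.115 for Napsa, -0.889 and 0.107 for Klk1, -1.202 and 0.243 for Umod, -0.8 and 0.128 for Fxyd2, -0.96 and 0.028 for Akr1c21, and -2.054 and 0.235 for Ces1f, each lowest without M-MDSC replicate 3. They were -0.116 and 5.109 for Igkc, -1.014 and 11.053 for Ighg1 and -0.387 and 11.112 for Ighg2b, lowest without M-MDSC replicate 3 and highest without G-MDSC replicate 3, where the 3 immunoglobulin genes were called higher against libraries at or near 0. Such fitted values depend on the prior count. The cause was not tested.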

Other observations

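Some genes outside the 88 had far more counts in one or a pair of the 12 libraries than in the others. Gm4631 had 623 counts in M-MDSC replicate 3, 7 in Control replicate 2 and 0 in the other 10 libraries. Mir682 had 384 counts in G-MDSC replicate 2 and 300 in M-MDSC replicate 2, and 2 counts in each of the other libraries. Commd1b had 217 counts in G-MDSC replicate 2 and at most 6 elsewhere, and Gm43802 had 169 counts in G-MDSC replicate 1 and at most 6 elsewhere. The Ugt1a genes, which share their last exons and encode glucuronosyltransferases of liver and kidney, were split between libraries. Ugt1a5 had 247 counts in G-MDSC replicate 2 and at most 4 elsewhere, Ugt1a9 had 192 in G-MDSC replicate 3 and at most 31 elsewhere, and Ugt1a1 had 191 in M-MDSC replicate 2 and at most 43 elsewhere. Hemoglobin Hbb-bs had at most 8 counts without supernatant and 125, 88 and 52 counts with G-MDSC and 79, 66 and 52 with M-MDSC supernatant.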
